A study of Mus musculus with 24 samples.

Results

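The effect of an Hras retrovirus was measured in mouse primary keratinocytes that lack PPAR-beta (Ppard, also called PPAR-delta) and had been given GW0742, a synthetic PPAR-beta agonist. The members of the comparison were chosen by the titles of the arrays: 3 arrays of Ppar-beta null cells with hRas and GW0742 against 3 arrays of Ppar-beta null cells with GW0742 and a mock transduction, 6 of the 24 arrays of the series, over all 19937 genes tested. Both groups carried the null genotype on the C57/BL6 strain, and both received 1 uM GW0742 for 24 hours. The Hras cells were transduced for 48 hours, and the mock cells received no Hras virus. Cells were kept in culture for 2 days before infection. A mock transduction leaves the infection and Hras inseparable, so the effect of the virus as a whole cannot be told apart from that of Hras. The labels give neither the age and number of the animals, nor the deleted part of Ppard, nor the promoter that drives Hras in the virus. They also leave unsaid whether replicates came from separate cultures or animals. The p-values then speak only of array-to-array spread, and that could be technical. A pair of other comparisons served as references: Hras against mock in null cells with the vehicle DMSO, and Hras against mock in wild-type cells with GW0742, each 3 arrays against 3.

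Hras is a small GTPase that passes growth factor signals to the RAF, MEK and ERK kinases, and active Hras in mouse keratinocytes is the classical first step of skin carcinogenesis. Cultured keratinocytes with oncogenic Hras are known to make more ligands of the EGF receptor, to turn on the simple keratins Krt8 and Krt18 and to lose the early differentiation keratins Krt1 and Krt10. PPAR-beta is a nuclear receptor activated by fatty acids, which pairs with RXR and in skin is linked to differentiation and lipid metabolism. In cells that lack it, GW0742 has no intended receptor.

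The cells carried keratinocyte transcripts on every array. The mean log2 level of 12 keratinocyte markers lay between 13.30 and 13.32 on the mock arrays and between 12.99 and 13.08 on the Hras arrays. Of these 12 markers 7 fell and 1 rose, against 16.1% and 16.2% of all genes. Ppard gave log2 values of 10.73, 10.60 and 10.80 on the mock arrays and of 11.21, 11.47 and 11.41 on the Hras arrays. The groups did not overlap, and Ppard rose by 0.65 ± 0.09 (log2 difference ± SE, adjusted p = 0.000923). Since the probe set may lie beyond the deletion, these values do not check the genotype. Bulk RNA cannot tell a smaller share of a cell type from less of its RNA per cell. Markers of other cell types are set against 16.2% of all genes higher and 16.1% lower: 10 of 17 fibroblast markers fell and 1 rose, with a mean level over the list of 8.06 to 8.11 on the mock arrays and 7.36 to 7.52 on the Hras arrays. Of 13 melanocyte markers 9 fell and 0 rose, with mean levels of 9.11 to 9.14 and 8.71 to 8.89. Of 21 leukocyte and Langerhans cell markers 5 fell and 3 rose (7.05 to 7.11 and 6.79 to 7.01), and of 10 endothelial markers 2 fell and 3 rose (6.95 to 6.97 and 6.95 to 7.11). The deposited table has no detection calls, so no marker can be called absent. The 3 Hras arrays also spread more than those of any other group of the series: their median SD per gene was 0.122 on the log2 scale, against 0.0647 to 0.0798 in the other groups. The spread behind each test of the Hras effect was estimated from the 6 arrays alone, as 1 value a gene for both groups, so the adjusted p-values are approximate.

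Hras changed 6442 of 19937 genes, or 32.3% of all genes tested, at an adjusted p under 0.05 (limma, Benjamini-Hochberg over all genes): 3228 were higher (16.2%) and 3214 lower (16.1%). The change reached at least 2-fold in 486 of the higher genes and 511 of the lower ones, and at least 4-fold in 124 and 92. The 3 arrays of one group lay wholly above or below those of the other for 8980 genes (45.0%), 4555 upward and 4425 downward. The median change over all genes was -0.003, and 7950 genes had an unadjusted p under 0.05. Against a minimum change of 1.5-fold, 1106 genes passed, 539 higher and 567 lower.

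The largest rises included secreted proteins, cornified envelope genes, a simple keratin and ion and acid handling genes. Ppbp, a platelet-type CXC chemokine, gave 6.19, 6.35 and 6.90 on the mock arrays and 12.63, 12.52 and 12.04 on the Hras arrays. All 3 Hras arrays were far above the mock arrays, and the rise of 5.92 ± 0.21 was 60.4-fold (adjusted p = 8.21e-07). The mock values lay below the array medians (7.46 to 7.53). Without detection calls they are not shown to be above background, so the fold is uncertain. Il1a, the IL-1 alpha alarmin, gave 9.62, 9.60 and 9.49 without and 13.18, 13.14 and 13.07 with Hras. The Il1a values were tight within each group, and the gene rose 11.8-fold, by 3.56 ± 0.07 (adjusted p = 1.35e-07). Il24, an IL-10 family cytokine, went from 8.52, 8.54 and 8.47 to 11.99, 12.16 and 11.95, a rise of 3.52 ± 0.08.

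Of the 15 largest rises 9 had a promoter window in a RefSeq table of GRCm38.p6, and those of Ppbp and Il1a held the letters TGANTCA, which include the TGACTCA and TGAGTCA forms recognised by AP-1, a factor downstream of ERK. The motif reads the same on both strands apart from the free base. The Ppbp match, TGAATCA, is neither of the AP-1 forms named, and the Il1a match is TGACTCA. They are shown as the promoters of the largest rise and of an alarmin among the largest rises, as the 250 bases before the transcription start, 5′ to 3′ in the direction of transcription, with the match in capitals.
Ppbp: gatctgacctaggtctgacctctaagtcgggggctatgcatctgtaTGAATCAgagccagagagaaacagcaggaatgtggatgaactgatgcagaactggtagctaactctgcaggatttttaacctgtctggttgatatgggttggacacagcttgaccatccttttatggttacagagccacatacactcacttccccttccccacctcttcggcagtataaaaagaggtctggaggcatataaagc
Il1a: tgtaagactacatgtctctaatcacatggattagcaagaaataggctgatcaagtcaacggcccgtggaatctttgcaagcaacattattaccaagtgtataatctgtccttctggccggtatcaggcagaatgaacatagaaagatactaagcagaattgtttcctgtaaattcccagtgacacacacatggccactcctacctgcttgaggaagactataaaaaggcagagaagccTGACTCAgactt
The Ppbp window is chr5:90768268-90768517 on the plus strand and its match begins 204 bases before the start. The Il1a window is chr2:129309973-129310222 on the minus strand and its match begins 12 bases before the start. The share was 2 of 9 among the largest rises and 2 of 10 among the largest falls. Of 15613 genes tested with a window, 7.12% held TGANTCA, whatever its middle base. It was held by 17.1% of the 369 genes that rose at least 2-fold and 10.8% of the 390 that fell at least 2-fold. A match describes the letters only, and no binding was measured.

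Hormone and defence genes followed Ppbp. The placental prolactin family genes Prl2c5, Prl8a9 and Prl7b1 rose by 5.50 ± 0.25, 5.37 ± 0.11 and 4.72 ± 0.12. Prl2c5 read 5.53, 6.39 and 6.61 on the mock arrays and 11.74, 11.72 and 11.57 on the Hras arrays, so that its mock arrays differed among themselves by more than its Hras arrays. The mock means of Prl2c5 (6.17), Prl8a9 (6.55) and Prl7b1 (4.93) also lay below the array medians, so the sizes of these rises are uncertain too. The beta-defensin Defb14 rose by 4.33 ± 0.12, from 7.43, 7.11 and 7.19 to 11.35, 11.74 and 11.62. Members of these families and of the Lce, Sprr2, Clca3a and clade B serpin families have near-identical copies, and how far probes read across copies was not tested. Kcnn4, a calcium-activated potassium channel, rose by 4.06 ± 0.12, and the carbonic anhydrases Car2 and Car6 rose by 3.89 ± 0.20 and 3.55 ± 0.09. Gsta4, a glutathione transferase that detoxifies lipid aldehydes, rose by 3.65 ± 0.11. The remaining genes of the 15 were Lce3a, Lce3f, Krt18 and Sprr2j-ps (3.77 ± 0.12).

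The largest falls were led by a serpin, early differentiation keratins and secreted or membrane proteins. Serpinb3a, a clade B protease inhibitor, gave 8.45, 8.35 and 8.13 on the mock arrays and 3.29, 3.92 and 3.24 on the Hras arrays, a fall by 4.83 ± 0.18 (adjusted p = 1.04e-06). Its Hras values lay near the low end of the whole table, whose lowest value was 2.27, and without detection calls they are not shown to be above background, so its size and its place among the falls are uncertain. Clca3a2 and Clca3a1, related to chloride channel regulators, changed by -4.64 ± 0.13 and -3.80 ± 0.11. Sema3d, a secreted guidance molecule, fell by 4.52 ± 0.08, from 11.22, 11.25 and 11.11 to 6.81, 6.61 and 6.59. Dapl1, a gene of early epithelial differentiation, fell by 4.43 ± 0.09. The thioesterase Them5 (-3.87 ± 0.09), the chemokine receptor Ccr4 (-3.64 ± 0.12), the carboxypeptidase Cpa6 (-3.55 ± 0.07), Bex1 (-3.49 ± 0.22), Mill1 (-3.45 ± 0.08), Ccdc80 (-3.41 ± 0.07) and the monocarboxylate transporter Slc16a7 (-3.31 ± 0.08) followed, beside Krt1, Krt10 and Usp18. The Hras means of Sema3d (6.67), Clca3a1 (6.10), Ccr4 (6.41), Bex1 (5.81) and Usp18 (7.16) lay below the array medians. So did those of Dapl1 (7.03), Cpa6 (7.27), Ccdc80 (6.41) and Slc16a7 (6.46), and the sizes of these falls are uncertain too.

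**Figure D1:**
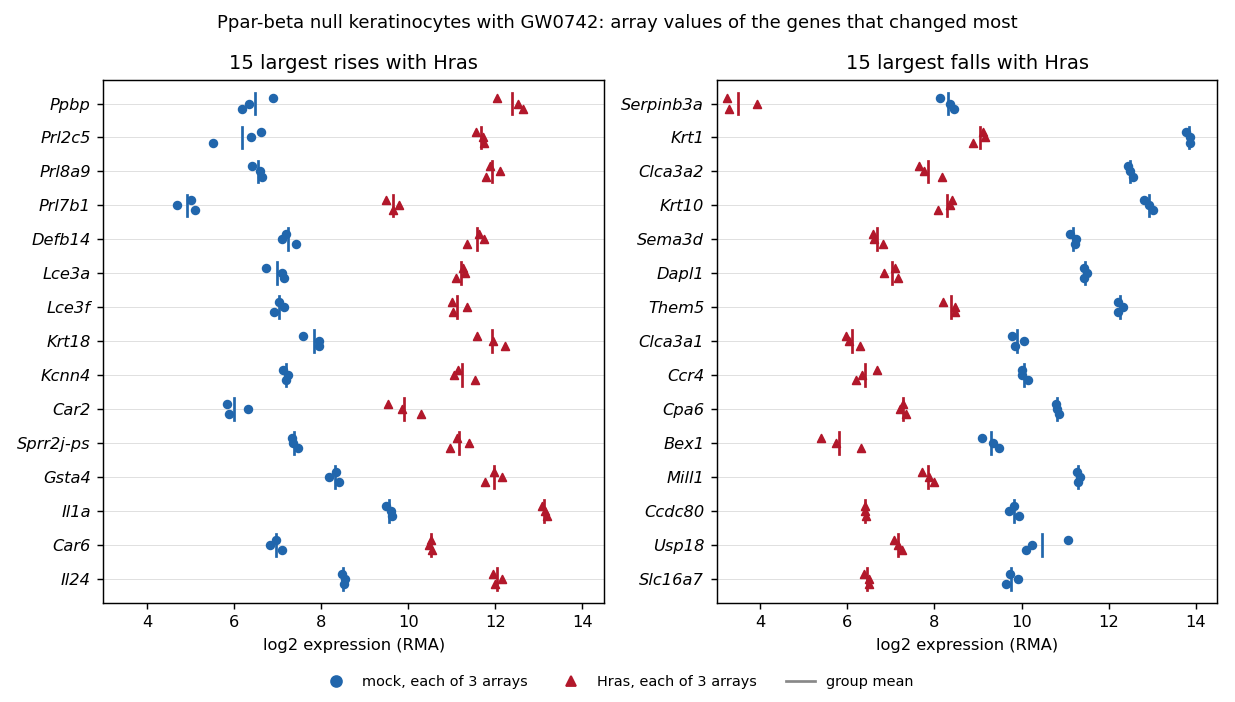
Log2 expression (RMA) of the 15 genes that rose most (left) and the 15 that fell most (right) with Hras in Ppar-beta null cells with GW0742, one point per array and a bar at each group mean (3 mock and 3 Hras arrays). The rises run from 5.92 for Ppbp to 3.52 for Il24 and the falls from -4.83 for Serpinb3a to -3.31 for Slc16a7, with no overlap between groups by the choice of these genes.

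Feedback genes of the ERK pathway rose in 10 of 20 cases and fell in 2, against 16.2% and 16.1% of all genes. The same shares apply to the counts of rises and falls in every list that follows. Dusp4, a nuclear phosphatase of ERK, read 8.08, 8.18 and 7.93 without and 11.46, 11.40 and 11.40 with Hras. Its Hras arrays lay close together and above every mock array, with a rise of 3.36 ± 0.08 (10.3-fold, adjusted p = 2.14e-07). Dusp5, its close relative, rose by 2.49 ± 0.07, and the cytoplasmic ERK phosphatase Dusp6 by 1.56 ± 0.08. All 3 Hras arrays of both lay above the mock arrays. Spred3 (1.34), Rasa1 (0.96), a GTPase-activating protein of Ras, Spred1 (0.87), Dusp1 (0.82) and Spry2 (0.75), inhibitors along the same route, rose as well. Lrig3 fell by 1.54 ± 0.08 and Spry1 by 0.34, while Spry4 did not pass at 0.00 ± 0.10.

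Among 24 AP-1, ETS and immediate early factors 14 rose, against 16.2% of all genes, and 5 fell, near the share of all genes (16.1%). The ETS factors Etv5 and Etv4, transcriptional outputs of ERK, rose by 2.35 ± 0.11 and 1.79 ± 0.06. Fosl1, the FRA-1 subunit of AP-1, went from 8.74, 8.88 and 8.95 to 10.89, 11.04 and 10.95, a rise of 2.11 ± 0.08 (adjusted p = 1.11e-06). AP-1 genes did not move one way: Jun fell by 0.75 ± 0.08 and Fosl2 by 0.86 ± 0.08, and all 3 Hras arrays of each lay below the mock arrays. Egr1, a rapid response factor, fell by 0.74 ± 0.08, from 10.92, 10.99 and 11.07 to 10.20, 10.20 and 10.36. Phlda1 (1.72 ± 0.08), Maff (1.64 ± 0.09), Ier3 (1.05) and Atf3 (0.83) rose.

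In the EGF family 6 of 15 genes rose and 4 fell: the 6 were ligands, and 3 of the 4 were receptors. Of all genes 16.2% rose and 16.1% fell. Nrg1, a ligand of ERBB3 and ERBB4, gave 10.20, 10.19 and 10.19 on the mock arrays and 12.53, 12.54 and 12.60 on the Hras arrays, a rise of 2.36 ± 0.06 (5.15-fold, adjusted p = 2.37e-07). The EGF receptor ligands Ereg (2.03 ± 0.08), Hbegf (1.86 ± 0.07), Btc (1.58), Tgfa (1.42) and Epgn (1.20 ± 0.12) rose too. Erbb2, the receptor without a ligand of its own, gave 10.93, 10.93 and 10.99 and then 9.91, 9.92 and 10.01. It fell 2.00-fold, by 1.00 ± 0.07 on the log2 scale (adjusted p = 1.65e-05), and Egfr (-0.52 ± 0.07), Erbb3 (-0.46) and the ligand Nrg4 (-0.35) fell as well. The call of Nrg4 was lost without mock replicate 1 or 2 (-0.29 and -0.33, adjusted p = 0.058 and 0.0578).

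Secreted signals of inflammation rose in part. In the IL-1 and cytokine list 9 of 22 genes rose and 3 fell, the latter near the share of all genes (16.1%). Beside Il1a and Il24, Csf2, which encodes GM-CSF, rose by 2.47 ± 0.25, from 6.17, 6.70 and 5.98 to 9.21, 8.77 and 8.27. The Csf2 arrays spread within both groups yet did not overlap. Lif, an IL-6 family cytokine, rose by 1.69 ± 0.13 and Tnf by 0.56. Ptgs2 (COX-2), a prostaglandin enzyme rather than a cytokine, rose by 1.08 ± 0.06. The alarmins Il18 and Il33 fell by 1.18 ± 0.10 and 0.89 ± 0.08, and Il1b (-0.02) and Il6 (0.10) did not pass. Among 13 chemokines 5 rose and 4 fell: the neutrophil chemokines Cxcl1 (1.65 ± 0.08), Cxcl5 (1.65) and Cxcl2 (1.40 ± 0.10) rose, and Cxcl10, a chemokine induced by interferon, fell by 1.86 ± 0.11.

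Antimicrobial and alarmin genes rose in 13 of 22 cases and fell in 5, against 16.2% and 16.1% of all genes. S100a7a, related to psoriasin, rose by 3.27 ± 0.10, from 8.12, 7.87 and 7.84 to 11.19, 11.33 and 11.11. The calprotectin subunits S100a9 (2.56 ± 0.11) and S100a8 (2.12 ± 0.09) and the defensin Defb4 (2.59 ± 0.11) rose, while the lysozyme gene Lyz2, also a marker of myeloid cells, fell by 3.08 ± 0.08, from 9.08, 9.01 and 8.88 to 5.82, 5.94 and 5.97. In the list of matrix proteases and the plasminogen system 9 of 19 genes rose and 7 fell. Plaur, the urokinase receptor, rose by 2.63 ± 0.12, the matrix metalloproteinase gene Mmp1b by 3.11 ± 0.12, the stromelysins Mmp3 (2.21 ± 0.13) and Mmp10 (1.76 ± 0.09) also, and the collagenase Mmp13 by 1.38 ± 0.16. Mmp13 read 9.64, 9.69 and 9.67 on the mock arrays and 10.69, 11.40 and 11.06 on the Hras arrays. The membrane protease Mmp14 (-0.98 ± 0.09), the elastase Mmp12 (-1.35 ± 0.09) and the inhibitors Timp2 (-1.05 ± 0.09) and Timp3 (-0.88) fell, and Mmp9 at 0.36 ± 0.16 did not pass, its groups overlapping.

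**Figure D2:**
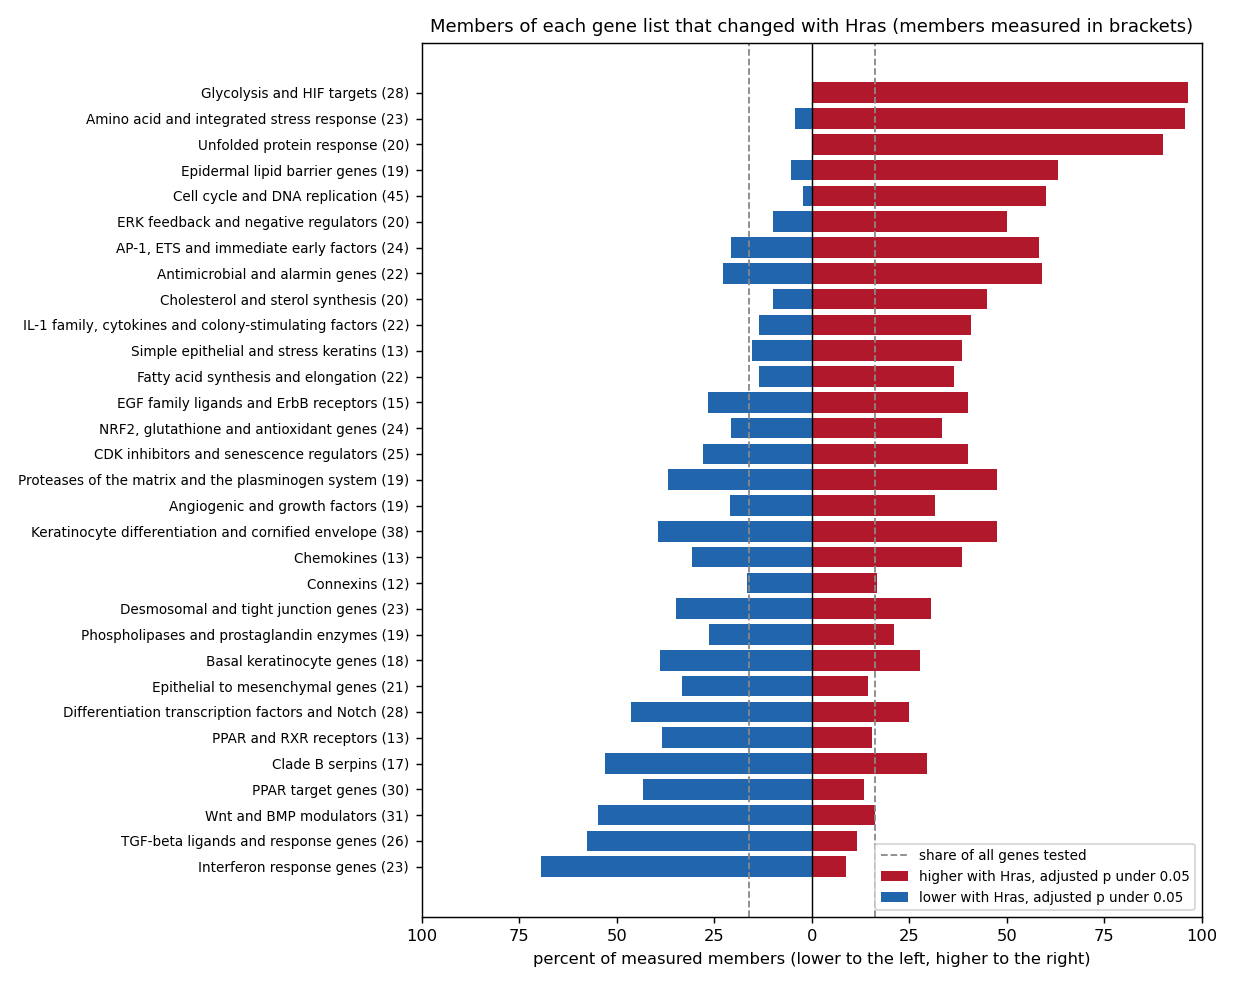
Percent of the measured members of 31 gene lists that were higher (right, red) or lower (left, blue) with Hras in Ppar-beta null cells with GW0742, at an adjusted p under 0.05, with the number of members measured in brackets. Dashed lines mark the share of all genes tested, 16.2% higher and 16.1% lower. Glycolysis, amino acid stress and unfolded protein lists are almost wholly to the right, and the interferon list has 16 of 23 members to the left.

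Keratins changed in both directions. Krt1 and Krt10, the pair of the first suprabasal layer, fell furthest: Krt1 read 13.88, 13.87 and 13.78 on the mock arrays and 8.89, 9.16 and 9.11 on the Hras arrays. Krt1 was 27.7-fold lower (-4.79 ± 0.09, adjusted p = 1.35e-07), and Krt10 was 24.9-fold lower (-4.64 ± 0.10), from 13.03, 12.93 and 12.81 to 8.09, 8.36 and 8.41. Krt8 and Krt18, the pair of simple epithelia, rose. Krt18 went from 7.95, 7.96 and 7.58 to 12.23, 11.94 and 11.59, a 17.0-fold rise of 4.09 ± 0.17 (adjusted p = 1.66e-06), and Krt8 rose by 2.88 ± 0.19. Krt8 read 9.14, 8.99 and 9.03 without and 12.41, 11.64 and 11.74 with Hras, so that Hras replicate 1 was the highest for both genes. Krt19 (1.30 ± 0.15), the hair follicle keratin Krt75 (1.54 ± 0.11) and Krt6b (0.76 ± 0.09) also rose, Krt17 (-0.30) and Krt80 (-0.45) fell, and Krt6a, Krt16 and Krt7 did not pass. In this list 5 of 13 were higher, against 16.2% of all genes, and 2 lower, near the share of all genes (16.1%). With trend and robust moderation Krt6a (adjusted p = 0.0204), Krt16 (0.0182) and Krt7 (0.0402) passed as falls.

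Basal cell genes moved in both directions, with 5 of 18 higher and 7 lower, against 16.2% and 16.1% of all genes. Krt5 fell by 0.23 ± 0.06 (adjusted p = 0.0215), its arrays not overlapping, a call that was lost without any one of the mock arrays (adjusted p = 0.0687 to 0.0927). Its partner Krt14 did not pass at -0.08 ± 0.06, with 14.15, 14.12 and 14.09 on the mock arrays and 14.02, 14.06 and 14.04 on the Hras arrays. With trend and robust moderation Krt14 passed (adjusted p = 0.0441). The integrins Itga3 and Itga2, receptors for laminin and collagen, rose by 1.71 ± 0.07 and 1.28 ± 0.08. Trp63, the p63 factor of stratified epithelia, fell by 0.77 ± 0.08 and the hemidesmosomal collagen Col17a1 by 0.92. Sostdc1, an antagonist of BMP and Wnt signals, fell 9.63-fold, from 13.60, 13.63 and 13.60 to 10.41, 10.28 and 10.34 (-3.27 ± 0.07, adjusted p = 1.35e-07).

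In the list of keratinocyte differentiation and cornified envelope genes, which includes Krt1 and Krt10, 18 of 38 rose and 15 fell. The late cornified envelope genes of the Lce3 group rose: Lce3a from 7.15, 7.11 and 6.73 to 11.09, 11.30 and 11.26 (4.22 ± 0.12, 18.6-fold, adjusted p = 3.47e-07), Lce3f by 4.10 ± 0.11, Lce3b by 2.47 and Lce3c by 2.36. The small proline-rich genes Sprr2i (2.04), Sprr3 (1.96) and Sprr2d (1.39), the envelope precursor Ivl (1.09 ± 0.10) and Cnfn (1.16 ± 0.07) rose as well. Lor, the loricrin gene, fell by 0.87 ± 0.11 (adjusted p = 0.000544), with its highest Hras array below the mock arrays, which read 11.67, 11.77 and 11.67. Beside it the transglutaminases Tgm3 (-1.36 ± 0.08) and Tgm5 (-1.46 ± 0.10) and the granular layer gene Flg2 (-0.54) fell. Sprr1a, at 0.02, did not pass.

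**Figure D3:**
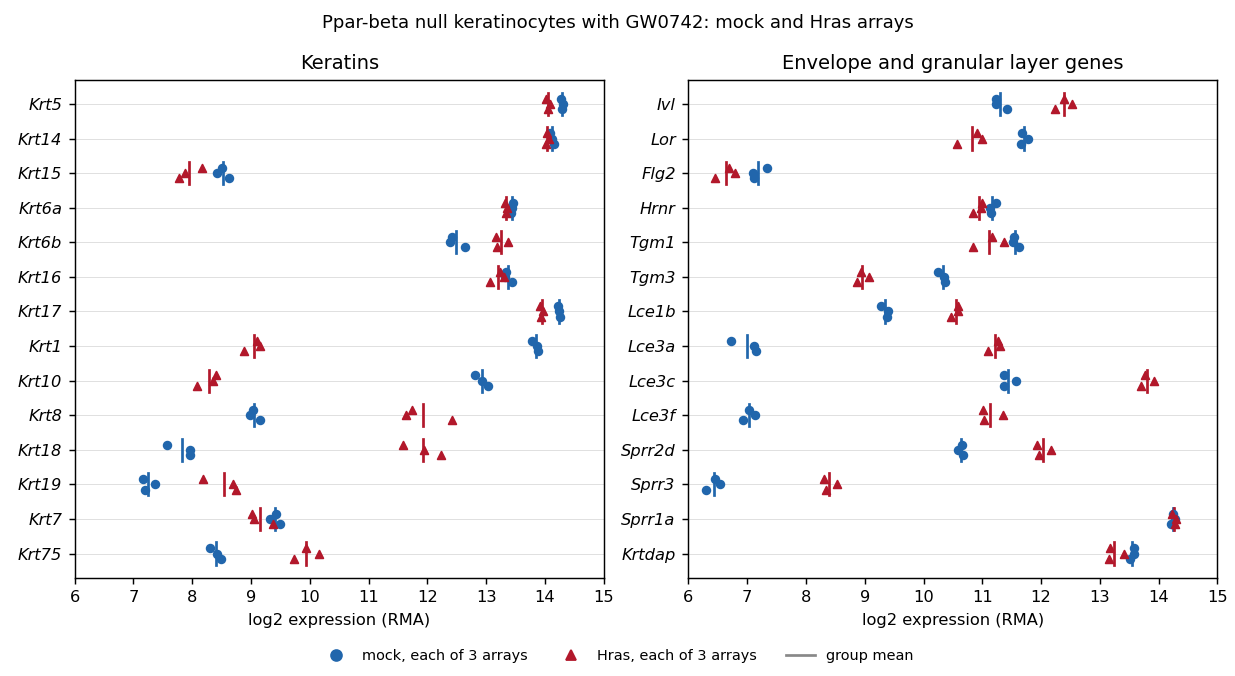
Log2 expression (RMA) of keratins (left) and of cornified envelope and granular layer genes (right) in Ppar-beta null cells with GW0742, one point per array and a bar at each group mean (3 mock and 3 Hras arrays). Krt1 and Krt10 fall by 4.79 and 4.64 and Krt8 and Krt18 rise by 2.88 and 4.09, while Krt5 and Krt14 stay close to their mock arrays and Lce3a and Lce3f rise by 4.22 and 4.10.

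Genes of the epidermal lipid barrier rose in 12 of 19 cases and fell in 1. Degs2, which hydroxylates sphingolipids for phytoceramides, went from 8.77, 8.77 and 8.66 to 11.84, 12.17 and 12.16. The Hras arrays were all above the mock arrays and the rise was 3.33 ± 0.10 (adjusted p = 4.27e-07). The lipoxygenases Alox12b (1.66 ± 0.13) and Aloxe3 (1.46 ± 0.11), which act in turn on barrier ceramides, the ceramide glucosyltransferase Ugcg (1.13), Pnpla1 (0.92), Sdr9c7 (0.89 ± 0.14) and the lipid transporter Abca12 (0.79 ± 0.07) rose, and Sptlc3, of the first step of sphingolipid synthesis, fell by 0.93. Of 28 differentiation factors and Notch genes 7 rose and 13 fell, against 16.2% and 16.1% of all genes. Prdm1, the BLIMP1 factor active in terminal differentiation, rose by 1.96 ± 0.11 and the homeobox gene Hopx by 1.18 ± 0.10, while the receptors Notch2 (-0.99 ± 0.06), Notch3 (-0.74) and Notch1 (-0.72) and the factor Gata3 (-0.97 ± 0.06) fell.

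Cell cycle and DNA replication genes rose in 27 of 45 cases and fell in 1, with a median change of 0.45 against -0.003 over all genes. Ccnd1, the cyclin D1 gene, read 11.19, 11.20 and 11.21 without and 13.35, 13.25 and 13.25 with Hras, a 4.23-fold rise of 2.08 ± 0.07 (adjusted p = 4.64e-07). The licensing factor Cdt1 rose by 1.21 ± 0.13 and Mcm3, of the replicative helicase, by 0.70 ± 0.09. Mki67, the Ki-67 gene, did not pass at -0.08 ± 0.07, with 10.76, 10.88 and 10.93 on the mock arrays and 10.85, 10.73 and 10.77 on the Hras arrays, which overlap. Pcna did not pass either (0.67 ± 0.32), and its mock replicate 2 read 10.73 where the other mock arrays read 11.95 and 12.13. In the list of CDK inhibitors and senescence regulators 10 of 25 rose and 7 fell: the chromatin protein gene Hmga2 rose by 3.14 ± 0.08 (8.84-fold) and Cdkn2a by 0.49 ± 0.08, and Igfbp2 (-3.13 ± 0.18), Igfbp5 (-2.21 ± 0.16), Gadd45b (-1.70 ± 0.10), Rb1 (-0.86 ± 0.07) and Cdkn2b (-0.68 ± 0.13) fell.

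Glycolysis and HIF target genes rose in 27 of 28 cases, with 0 lower and a median change of 1.00. Egln3, a prolyl hydroxylase that marks HIF for degradation and is itself induced by it, gave 8.15, 8.19 and 8.03 on the mock arrays and 10.87, 11.36 and 11.24 on the Hras arrays. It rose 8.18-fold, by 3.03 ± 0.13 (adjusted p = 1.64e-06), and the lactate exporter Slc16a3 rose by 2.50 ± 0.07, from 9.73, 9.66 and 9.67 to 12.13, 12.24 and 12.18. Bnip3, a mitophagy receptor, rose by 2.47 ± 0.10, Pfkfb3, an activator of phosphofructokinase, by 2.28, Car9 by 2.18 ± 0.14 and the angiogenic factor Vegfa by 1.62 ± 0.07. Enzymes of the main path rose by less, such as Pgk1 (0.94), Ldha (0.62), Pkm (0.48) and Aldoa (0.45), and Hk1 did not pass at 0.08.

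Genes of amino acid supply and the integrated stress response rose in 22 of 23 cases and fell in 1, with a median of 0.90. Cth, which makes cysteine from cystathionine, read 8.74, 8.76 and 8.69 and then 11.02, 10.72 and 10.83, a rise of 2.13 ± 0.09 (4.36-fold, adjusted p = 1.62e-06). The pseudokinase Trib3 (1.74 ± 0.07), mitochondrial Mthfd2 of folate metabolism (1.57) and Ddit3, the CHOP factor (1.12), rose, as did Atf4 itself (0.63 ± 0.07) and asparagine synthetase Asns (0.72 ± 0.07). Cbs, the enzyme just before Cth, fell by 0.80 ± 0.09. In the list of the unfolded protein response 18 of 20 rose and 0 fell, with a median of 0.76. Hspa5, the endoplasmic reticulum chaperone BiP, gave 12.54, 12.52 and 12.51 without and 13.57, 13.55 and 13.54 with Hras, a 2.04-fold rise of 1.03 ± 0.06 (adjusted p = 9.42e-06). Herpud1, of protein degradation at that membrane, rose by 1.13 ± 0.07 and Creld2 by 1.14 ± 0.07, and Pdia3 and Canx did not pass. Pdia3 and Canx passed with the spread of all 24 arrays (adjusted p = 0.0157 and 0.0142) and in some other refits.

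TGF-beta ligands and response genes fell in 15 of 26 cases and rose in 3, with a median of -0.46. Of all genes 16.1% fell and 16.2% rose. Ccn2, the connective tissue growth factor gene, went from 13.63, 13.72 and 13.69 to 11.39, 11.29 and 11.12. It was 5.32-fold lower (-2.41 ± 0.08, adjusted p = 7.81e-07), with every Hras array below every mock array. Tgfbi (-2.04 ± 0.06), the latent binding protein gene Ltbp1 (-1.44), fibronectin Fn1 (-1.33 ± 0.09), Id1 (-1.30 ± 0.10) and the ligand Tgfb2 (-1.11 ± 0.09) fell, and the receptor Tgfbr1 (0.65) and the activin subunit Inhbb (0.97) rose. Several of these are also made by fibroblasts, whose markers fell on the same arrays (Postn by 2.01 ± 0.11 and Col1a1 by 1.28 ± 0.07), and the part of those cells in this result was not tested. Of 31 Wnt and BMP modulators 17 fell and 5 rose, the latter near the share of all genes (16.2%). The R-spondin receptors Lgr4 (-2.26 ± 0.11) and Lgr5 (-1.82 ± 0.08), the ligand Wnt3 (-1.79 ± 0.07) and the Wnt target Axin2 (-1.38 ± 0.10) fell. Grem1 (1.91 ± 0.18), a BMP antagonist, Bmp6 (1.78 ± 0.08) and Lgr6 (1.43 ± 0.18) rose. In the epithelial to mesenchymal list 3 of 21 rose, near the share of all genes (16.2%), and 7 fell, with Vim lower by -0.63 ± 0.08 and Epcam higher by 1.30 ± 0.12, while Cdh1 (-0.21) and Snai1 (-0.15) did not pass. Cdh1 passed with the spread of all 24 arrays (adjusted p = 0.000494) and in some other refits.

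Interferon response genes fell in 16 of 23 cases and rose in 2, against 16.1% and 16.2% of all genes, with a median of -0.54. Usp18, a deconjugase of ISG15, read 10.10, 10.25 and 11.07 on the mock arrays and 7.24, 7.17 and 7.07 on the Hras arrays. The mock arrays spread widely, with mock replicate 3 highest, yet the groups were apart and the fall was 9.93-fold (-3.31 ± 0.23, adjusted p = 2.02e-05). Irf7, the amplifier of the response, went from 8.66, 8.86 and 9.30 to 7.23, 7.04 and 7.32 (-1.74 ± 0.16), with the same mock array highest. Oasl2 (-2.29 ± 0.23), Xaf1 (-2.24 ± 0.14), Irf9 (-2.02 ± 0.15), the RNA sensor Ifih1 (-2.02 ± 0.17) and Stat2 (-1.44) fell. The exonuclease Isg20 and the receptor Tlr3 rose by 1.84 ± 0.09 and 1.63 ± 0.19.

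Of 30 PPAR target genes 4 rose, near the share of all genes (16.2%), and 13 fell, with a median of -0.20. Pdk4, a kinase that restrains pyruvate oxidation and a standard target of PPAR-beta, read 6.98, 7.10 and 6.98 on the mock arrays and 6.79, 6.65 and 6.91 on the Hras arrays. It did not pass (-0.24 ± 0.09, adjusted p = 0.0694), although its arrays did not overlap. These Pdk4 values lay below the array medians (7.46 to 7.53) and are not shown to be above background. Pdk4 passed with the spread of all 24 arrays (adjusted p = 0.0227), without the 40% dimmest genes (0.0309) and without Hras replicate 3 (0.0256). Angptl4, an inhibitor of lipoprotein lipase that HIF also induces, rose by 0.58 ± 0.14 (adjusted p = 0.0125, and 0.0511 without mock replicate 1), and the fatty acid carrier Fabp4 rose by 2.57 ± 0.11. Txnip, which curbs glucose uptake, fell by 2.93 ± 0.09 (7.64-fold), from 9.32, 9.46 and 9.29 to 6.57, 6.38 and 6.32, and Cpt1a, the gate of fatty acids into mitochondria, fell by 1.81 ± 0.09, beside Acadl (-1.19 ± 0.08) and Cd36 (-1.16 ± 0.14). Of 13 receptors and cofactors 2 rose, near the share of all genes (16.2%), and 5 fell: Ppard and Pparg (0.42 ± 0.07) rose, the partner Rxra fell by 0.92 ± 0.06, and Ppara did not pass (-0.08 ± 0.11).

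The other lists gave mixed counts, again beside 16.2% of all genes higher and 16.1% lower. Sterol synthesis had 9 of 20 genes higher and 2 lower, fatty acid synthesis and elongation 8 of 22 higher and 3 lower, and the NRF2 and glutathione list 8 of 24 higher and 5 lower. The heme oxygenase Hmox1 rose by 1.11 ± 0.08 and Gstm1 fell by 1.05 ± 0.07. Clade B serpins had 5 of 17 higher and 9 lower, desmosomal and tight junction genes 7 of 23 higher and 8 lower, and connexins, near the share of all genes, 2 of 12 higher (Gjb6 by 2.24 ± 0.16 and Gjb2 by 0.63 ± 0.14) and 2 lower. The tight junction genes Cldn7 (2.44 ± 0.23) and Cldn3 (2.04 ± 0.16) rose with Hras replicate 1 highest, at 11.23 for Cldn7 against 10.42 and 10.25. Phospholipase and prostaglandin genes had 4 of 19 higher, such as Ptgs2, and 5 lower, such as Hpgd, which degrades prostaglandins (-1.33 ± 0.14). Angiogenic and growth factors had 6 of 19 higher, with the VEGF relative Pgf at 2.24 ± 0.15, and 4 lower.

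The same virus was set against mock in null cells given DMSO, which tests whether GW0742 altered the effect of Hras without PPAR-beta. Of the 3228 genes higher with GW0742, 2698 (83.6%) were also among the 3620 higher with DMSO (74.5% of those), and 2826 of the 3214 lower genes (87.9%) were among the 3693 lower with DMSO (76.5%). Opposite calls were made for 5 and 1 genes. With DMSO 36.7% of genes passed. The effects share no array, but the calls with DMSO come from the fit of 12 arrays that also gave the difference, so the counts are not equally powered. The difference itself passed for 31 genes, 0.155% of those tested, 30 with a more positive change with GW0742 (0.15%) and 1, the transporter Slco4a1, with a more negative one (0.00502%; -1.05 ± 0.14, adjusted p = 0.0264). At an unadjusted p under 0.05 there were 1866. The call of Slco4a1 was lost with the spread of all 24 arrays (adjusted p = 0.0537) and when some single arrays were left out.

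Lce3a had the largest of these differences: it rose by 4.22 with GW0742 and by 2.61 with DMSO, a difference of 1.61 ± 0.22 (adjusted p = 0.0264). Pla2g4d, a cytosolic phospholipase, rose by 2.38 ± 0.15 with GW0742 and by 0.83 with DMSO, from mock values of 6.75, 6.86 and 6.75 to Hras values of 8.97, 9.56 and 8.97 (difference 1.56 ± 0.22). Il1f5, the IL-36 receptor antagonist, fell by 1.40 with DMSO and did not pass with GW0742 (-0.18 ± 0.12), with overlapping arrays at 11.48, 11.42 and 11.32 against 10.98, 11.44 and 11.27, a difference of 1.22 ± 0.18. Prl8a9 (1.10 ± 0.17), Krt75 (1.09 ± 0.18), Fabp4 (1.09 ± 0.15), Ly6m (1.08 ± 0.16), Tmem45b (1.07 ± 0.15), the connexin Gjb2 (1.07 ± 0.17) and the kallikrein Klk9 (1.06 ± 0.17) made up the rest. Some larger differences did not pass, such as that of Mmp13, which rose by 1.38 with GW0742 and gave -0.16 with DMSO (1.54 ± 0.32, adjusted p = 0.0771). In the differentiation list 2 of 38 differences passed, both positive, and their median was 0.46, against -0.004 over all genes. In the lipid barrier list 0 of 19 passed, with a median of 0.44.

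The count of these calls depended on single arrays. The count of 31 fell to 0 without null Hras GW0742 replicate 2, without any of the 3 null mock GW0742 arrays, without null Hras DMSO replicate 3 and without null mock DMSO replicate 1 or 3. It was 2 without null mock DMSO replicate 2, 15 without null Hras DMSO replicate 1, 28 without null Hras GW0742 replicate 3, 55 without null Hras DMSO replicate 2 and 416 without null Hras GW0742 replicate 1. With the spread taken from all 24 arrays it was 323.

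The comparison with wild-type cells under the same ligand asks whether the effect of Hras with GW0742 differed with the genotype. Loss of PPAR-beta cannot be told apart from other differences between the cells of each genotype, whose animals and cultures are not labelled. Only groups with GW0742 enter it, so whether a difference needs the ligand was not tested here. The genotypes shared 1879 higher genes (58.2% of the 3228 in null cells and 58.0% of the 3240 in wild-type cells) and 1919 lower genes (59.7% and 61.9% of 3102), and 117 and 158 genes passed in opposite directions. In wild-type cells 31.8% of genes passed, again in a fit of 12 arrays. The difference, null minus wild-type, passed for 3999 genes (20.1%), 1883 more positive in null cells (9.44%) and 2116 more negative (10.6%). The median over all genes was 0.012. It uses the same 6 null arrays as the difference between ligands, so those are not independent results.

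Differentiation genes differed mostly in one direction: 26 of 38 differences from wild-type were positive and 2 negative, with a median of 0.76. Among all genes 9.44% were positive and 10.6% negative. Lce1b rose by 1.20 ± 0.07 in null cells, from 9.38, 9.39 and 9.28 to 10.46, 10.59 and 10.59, and fell by 2.04 ± 0.10 in wild-type cells, where the means went from 10.92 to 8.88. The difference was 3.24 ± 0.13 (adjusted p = 2.17e-07), and Lce1a2 (3.22 ± 0.28) and Lce1f (2.77 ± 0.22) also differed upward. Lor fell in both genotypes, by 0.87 in null and by 2.49 in wild-type cells (difference 1.62 ± 0.13). Lce3f rose in both, by 4.10 in null and by 1.48 in wild-type cells, which began from a mean of 9.17 against 7.03. Krt1 also fell less in null cells (-4.79 against -6.24, difference 1.45 ± 0.18), and Krt10 fell by 4.64 and 4.72, with no difference past the threshold (0.08 ± 0.13, adjusted p = 0.769). In the lipid barrier list 14 of 19 differences were positive and 0 negative, among them Degs2 (1.96 ± 0.13) and Aloxe3 (1.37 ± 0.13).

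**Figure D4:**
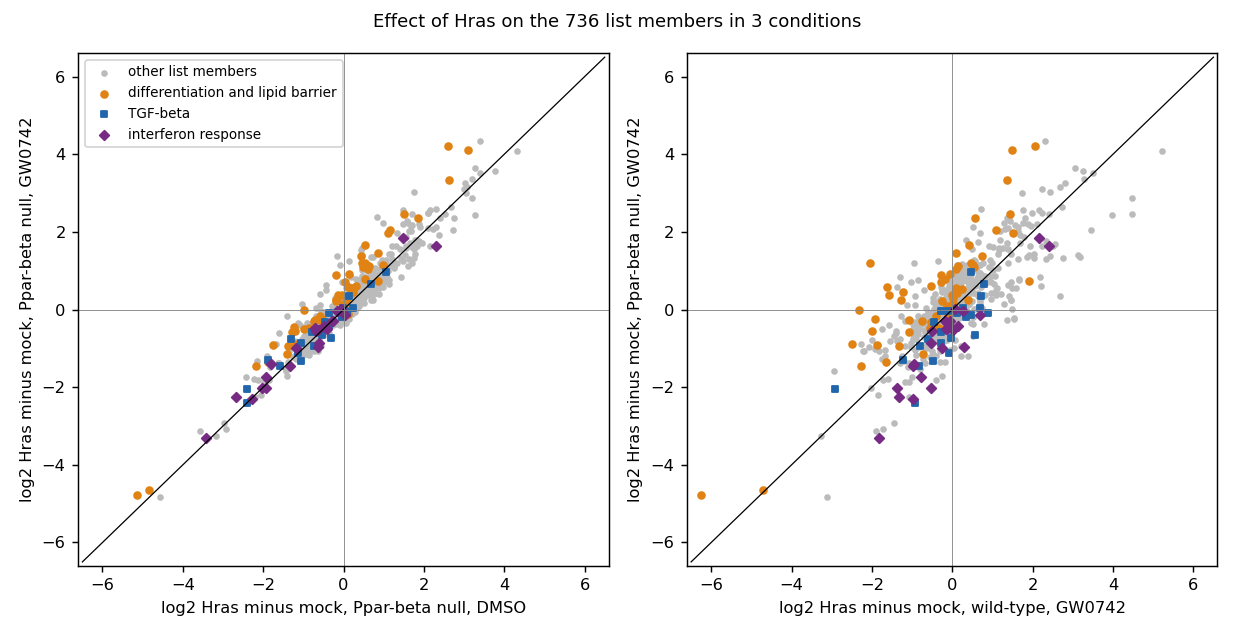
Log2 change with Hras for the 736 different genes of the lists in Ppar-beta null cells with GW0742 (vertical) against the same change in null cells with DMSO (left) and in wild-type cells with GW0742 (right), with the line of equal change. Differentiation and lipid barrier genes lie mostly above the line in both panels, with median differences of 0.46 and 0.44 from DMSO and of 0.76 and 0.46 from wild-type.

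The stress lists separated the genotypes as well, set against 9.44% of all genes more positive in null cells and 10.6% more negative. Of 23 genes of amino acid supply and the integrated stress response 20 had a more positive change in null cells and 1 a more negative one, with a median difference of 0.68. Cth rose by 2.13 in null and by 0.53 in wild-type cells (difference 1.60 ± 0.14, adjusted p = 1.07e-05), and Asns rose by 0.72 in null cells and gave 0.04 ± 0.06 in wild-type cells. The glutamine transporter Slc1a5 rose in null cells, from 8.03, 8.01 and 8.01 to 9.10, 8.61 and 8.83, and fell in wild-type cells, from a mean of 10.03 to 8.72 (difference 2.14 ± 0.15, adjusted p = 2.71e-06). For Slc1a5 the mock cells of the genotypes were therefore further apart than the Hras cells. In the unfolded protein response 18 of 20 differences were positive and 0 negative, with a median of 0.53, such as Hspa5 (0.71 ± 0.07) and Creld2 (1.01 ± 0.12). Cell cycle genes differed positively in 25 of 45 cases and negatively in 0, among them Ccnd1 (0.76 ± 0.07), whose means were 11.20 in null and 12.13 in wild-type mock cells and 13.28 and 13.45 with Hras.

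**Figure D5:**
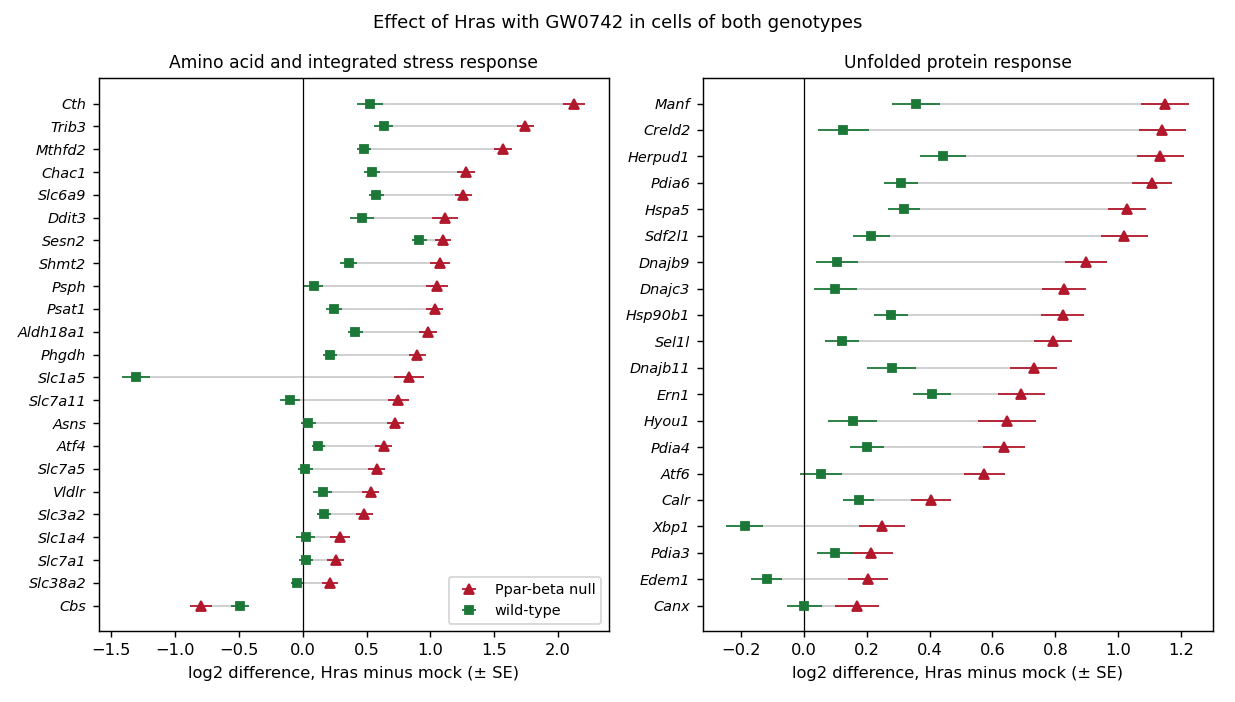
Log2 change with Hras (± SE, 3 arrays against 3; limma fit of 6 arrays for null and of 12 for wild-type) with GW0742 in Ppar-beta null cells (red triangles) and wild-type cells (green squares) for each measured gene of the amino acid and integrated stress response list (left) and the unfolded protein response list (right). In null cells 22 of 23 and 18 of 20 genes rose, and 20 and 18 had a change more positive than in wild-type cells at an adjusted p under 0.05.

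Other genes had a more negative change in null cells. Gabrp, a GABA receptor subunit of epithelia, fell in null cells, from 11.73, 11.71 and 11.72 to 9.72, 9.01 and 8.89, and rose in wild-type cells by 1.97 ± 0.16. Its difference of -4.49 ± 0.22 was the largest of all (adjusted p = 3.04e-07). The mock cells already differed: Gabrp means went from 11.72 to 9.20 in null cells and from 9.43 to 11.40 in wild-type cells. Sorbs2, a cytoskeletal adaptor, fell by 1.99 ± 0.16 and rose by 1.58 in wild-type cells (-3.57 ± 0.19). Il3, a haematopoietic cytokine, did not pass in null cells, at 4.83, 5.17 and 4.71 against 5.99, 4.97 and 5.49, but did without Hras replicate 2 (0.83, adjusted p = 0.0197). It rose by 4.14 in wild-type cells (difference -3.56 ± 0.28). The Il3 values in null cells lay below the array medians (7.46 to 7.53) and are not shown to be above background. Csf2 rose less in null cells (2.47 against 4.46, difference -2.00 ± 0.34), as did Cxcl2 (1.40 against 3.14), Krt8 (2.88 against 4.46) and Krt18 (4.09 against 5.23). Mmp9 and Krt7 rose by 2.69 and 1.35 in wild-type cells, with differences of -2.32 ± 0.24 and -1.62 ± 0.16. In null cells neither passed, but Mmp9 did without Hras replicate 3 (0.52, adjusted p = 0.0177) and Krt7 without Hras replicate 1 (-0.38, adjusted p = 0.00567) and with trend and robust moderation (adjusted p = 0.0402). Scavenger receptor Olr1 (-3.11 ± 0.26), Sox11 (-2.83 ± 0.18) and Clca3a2 (-2.74 ± 0.16) were among the largest, and Kctd4 went the other way (2.69 ± 0.12).

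Over all genes 10.6% of differences from wild-type were negative and 9.44% positive. In the TGF-beta list 13 of 26 were negative and 2 positive, the latter near the share of all genes. In the interferon list 11 of 23 were negative and 0 positive. Ccn2 fell by 2.41 in null and by 0.92 in wild-type cells (difference -1.49 ± 0.10, adjusted p = 1.39e-06), while Tgfbi fell less in null cells (0.88 ± 0.09). Of 17 fibroblast markers 10 had a positive difference and 0 a negative one, and their part in these results was not tested. Pdk4 rose in wild-type cells by 1.52 ± 0.08 from a mean of 10.94 and did not pass in null cells, a difference of -1.76 ± 0.12 (adjusted p = 1.39e-06). Its values in null cells lay below the array medians, so its change there is uncertain. Cpt1a fell by 1.81 in null and by 0.41 in wild-type cells (difference -1.40 ± 0.10), and Angptl4 gave 0.58 and 0.42, with no difference past the threshold (0.16 ± 0.16, adjusted p = 0.59). A p above the threshold does not show that the genotypes acted alike.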

How the data were processed

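Of the 24 Affymetrix Mouse Gene ST arrays of total RNA, in 8 groups of 3, the 18 of 6 groups were used. The authors deposited log2 values of each probe set, made with RMA per the submitters' processing notes, with no version given in the sources used here. RMA subtracts background, makes the arrays' distributions alike and summarises probes, so a shift shared by most genes is reduced. There were 34760 probe sets: 21640 named 1 gene, 1321 several and 11799 none in the platform annotation. Of probe sets of a gene the one with the highest mean was kept (954 genes had several), which left 19937 genes with no missing value. Array medians lay between 7.46 and 7.53. Values below them are not shown to be above background, so the size of a change that rests on them is uncertain. That includes the mock values of Csf2 and the Hras values of Lyz2 and Txnip. Array data carry no read depth, so the number of arrays limits the precision.

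The Hras effect was fitted with limma 3.58.1 (R 4.3.3; lmFit and eBayes) on the 6 arrays, and each difference of effects on 12. P-values were two-sided and adjusted by Benjamini-Hochberg over all genes, with 0.05 as the threshold. SE is limma's moderated standard error. The effects printed for null cells with DMSO and for wild-type cells come from those fits of 12 arrays, so their errors share the spread of the null GW0742 arrays and their counts of calls come from more arrays than the count of the Hras effect. Summaries were made with Python 3.11.15 and pandas 2.3.3 and plots with matplotlib 3.10.9.

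Named were the 15 largest rises and falls with groups that did not overlap, the 10 largest of each difference, the members of each list with the largest changes and a few reference genes. Further list members, Slco4a1 and the genes of the closing observations outside the lists were chosen after their values were seen. The comparison, the 31 gene lists and the 5 marker lists (818 entries, 765 measured, 736 different genes) were chosen with earlier results of these data known, so a list's count is no independent support of its direction. Unmeasured entries were not analysed here, nor were Hras and a few further genes. Same-numbered mock and Hras arrays did not deviate together (correlations 0.0624, 0.0374 and -0.0727), so the numbers were not treated as pairs. Alternatives were another source of the spread, centring, a filter on dim genes, trend and robust moderation, every probe set, the replicate number as a block, a minimum fold and each array left out.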

Additional observations from a re-analysis of the deposited data

Results flagged for a closer look

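Genes were listed here because the effect of Hras differed between conditions by a test of the difference itself, the 10 largest for each.

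Between GW0742 and DMSO in null cells the change with Hras was more positive with GW0742 for Lce3a (1.61), Pla2g4d (1.56), Il1f5 (1.22), Prl8a9 (1.10), Krt75 (1.09), Fabp4 (1.09), Ly6m (1.08), Tmem45b (1.07), Gjb2 (1.07) and Klk9 (1.06), as log2 differences. Their adjusted p-values lay between 0.0264 and 0.0388. Each of these calls was lost when some single arrays were left out, as the counts of calls show.

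Between null and wild-type cells with GW0742 the change was more negative in null cells for Gabrp (-4.49), Sorbs2 (-3.57), Il3 (-3.56), Olr1 (-3.11), Sox11 (-2.83) and Clca3a2 (-2.74). It was more positive for Lce1b (3.24), Lce1a2 (3.22), Lce1f (2.77) and Kctd4 (2.69). For Il3 and Olr1 the null arrays overlapped between Hras and mock, beside rises of 4.14 and 2.62 in wild-type cells. Single arrays decided their calls in null cells: Il3 passed without Hras replicate 2 (0.83, adjusted p = 0.0197), and Olr1 passed without Hras replicate 1 (-0.76, adjusted p = 0.00229, against -0.48 with it) and with the spread of all 24 arrays (adjusted p = 0.0336). Kctd4 read 7.20, 7.22 and 7.10 on null mock arrays and 9.95, 10.04 and 10.01 on null Hras arrays. In wild-type cells it changed by 0.14, from a mock mean of 8.87 to 9.01, so the mock cells of the genotypes already differed.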

How the results depend on the processing

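The Hras effect gave 6442 genes and 4924 to 7081 with one array left out (2443 to 3452 higher and 2438 to 3629 lower), and against a minimum of 1.5-fold 1106 (539 higher, 567 lower). The other alternatives gave counts within 1.5 times, though with centred arrays the split was 3641 higher and 2820 lower. The difference between GW0742 and DMSO gave 31 calls, 323 with the spread of all 24 arrays (277 more positive, 46 more negative), 181 without the 40% dimmest genes (170 and 11), 227 with trend and robust moderation (201 and 26), and 0 to 416 with one array left out (0 to 284 and 0 to 132); the cause was not tested. The difference between null and wild-type gave 3999, and 3197 to 4723 with one array left out (1469 to 2097 and 1649 to 2626). With the replicate block the counts were 5897 for the Hras effect, 25 between ligands (23 and 2) and 3676 between genotypes. That block ended the calls of Krt5 (adjusted p = 0.0541, and 0.056 with centred arrays) and of the ligand differences of Klk9 (0.0514), Krt75 (0.0503) and Prl8a9 (0.0503), and gave one for Mmp13 (0.0452). Values near 0 turned sign: Il1b was 0.021 with centred arrays and -0.115 to 0.041 with one array left out, Ppara -0.166 to 0.008, Spry4 -0.098 to 0.095 and the genotype difference of Angptl4 -0.003 to 0.274. Centring moved the median of the NRF2 list from -0.02 to 0.02.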

Other observations

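The 5 contractile genes described here belong to none of the lists and were picked after their falls were seen. Acta2, smooth muscle actin, read 13.36, 13.50 and 13.44 on the mock arrays and 11.09, 11.18 and 11.11 on the Hras arrays, a fall by 2.31 ± 0.07 (adjusted p = 4.21e-07). Myl9, a myosin light chain, fell by 3.08 ± 0.12, Actg2 by 2.62 ± 0.08, Tagln by 2.36 ± 0.09 and Cnn1 by 2.04 ± 0.09. Fibroblast markers fell on the same arrays (10 of 17, mean level 8.06 to 8.11 without and 7.36 to 7.52 with Hras), and their part in the result was not tested. In wild-type cells with GW0742 Acta2 changed by -1.78, Myl9 by -2.23, Tagln by -1.80 and Cnn1 by -1.14, and their differences, null minus wild-type, passed (-0.52 ± 0.09, -0.84 ± 0.14, -0.55 ± 0.12 and -0.90 ± 0.12). Actg2 changed by -2.42 there, and its difference did not pass (-0.20 ± 0.10, adjusted p = 0.196).

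Further genes were picked after their values were seen, among them 4 transcription factors that fell; in the list of differentiation factors and Notch genes 7 of 28 rose and 13 fell. The POU factor Pou2f3 read 10.41, 10.56 and 10.53 on the mock arrays and 7.43, 7.49 and 7.57 on the Hras arrays (adjusted p = 2.18e-07). Pou3f1 fell by 2.44 ± 0.10, Irx4 by 2.37 ± 0.08 and Foxn1 by 2.32 ± 0.09. Foxn1 fell by 1.21 in wild-type cells, a difference of -1.11 ± 0.10. Membrane serine proteases and a sodium channel subunit rose: Tmprss11d by 2.96 ± 0.14, Tmprss11e by 2.89 ± 0.07 and Scnn1b by 2.36 ± 0.18. The retinol and steroid dehydrogenase Dhrs9 (3.35 ± 0.14), the prostate stem cell antigen Psca (3.50 ± 0.12), the imprinted gene Phlda2 (2.66 ± 0.07) and the secreted glycoprotein Stc2 (2.44 ± 0.06) rose as well. Stc2 rose by 1.01 in wild-type cells, a difference of 1.43 ± 0.11. Its mock means were 8.22 in null and 9.55 in wild-type cells, and its Hras means 10.67 and 10.56.

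Hras replicate 1 stood above the other Hras arrays for some genes that rose. Podxl read 10.27 on that array against 9.33 and 9.30, Pcolce2 read 10.53 against 9.44 and 9.59, and Cldn7 read 11.23 against 10.42 and 10.25.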
